A study of Mus musculus with 8 samples.

Results

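This is an account of 34 genes of DNA replication in mouse E14 embryonic stem cells (ESC) and in neural progenitors (NPC) made from them, with and without Wdr68. The members are the symbols of a fixed list, matched to the gene names of the deposited tables: all 34 were found, of 24318 symbols in all, and each had a single entry. The match used the symbol and no measured value, but the list was drawn up with earlier results of these data known. All 34 reached the minimum of 1 FPKM in at least 2 libraries, as did 13318 genes in all. FPKM is the number of sequenced fragments of a gene relative to its transcript length and to the fragments mapped in the library.

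The study sequenced polyadenylated RNA from 8 libraries, 2 in each of 4 groups: Wdr68 knockout NPC (KO-NPC), wild-type NPC (E14-NPC), Wdr68 knockout ESC (KO-ESC) and wild-type ESC (E14-ESC). E14 is a mouse embryonic stem cell line. All cells were grown with LIF, serum and inhibitors of Mek and GSK3, on fibroblast feeders or on gelatin, and were moved from feeders to gelatin before differentiation. To make NPC, embryoid bodies were formed in hanging drops of 500 cells for 2 days, kept in suspension for 2 days and treated with retinoic acid for 4 days. No sort of the NPC is named, so each NPC library is read here as RNA of whole embryoid bodies. The knockout allele and the number of knockout clones are not given in the sources used here. The series calls the samples duplicates and does not say that they came from separate cultures, so p-values reflect differences between these libraries alone, possibly of technical origin. The title of the series places WDR68 in an AUTS2-containing Polycomb complex with a part in stem cell differentiation, which is the question that the comparison of NPC addresses.

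Before a cell copies its genome, the origin recognition complex, Cdc6 and Cdt1 load the ring of Mcm subunits onto DNA, a step called licensing. Cdc45 and the GINS complex then join the ring to form the active helicase, the enzyme that unwinds DNA. Polymerase alpha and primase lay down primers, the RFC clamp loader places the Pcna ring on them, and polymerases delta and epsilon copy the strands. Fen1 and Lig1 process and join the fragments of the lagging strand, and ribonucleotide reductase and Tyms supply deoxynucleotides. Many of these genes are transcribed at the entry to S phase through E2F factors, which bind a short promoter motif and are held in check by the retinoblastoma protein Rb1.

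Depth was inferred from the confidence interval that each table gives with each FPKM, and came to 5996677 to 7942644 implied fragments per library. The members rested on 162 to 6371 implied fragments in a library, and the 95% confidence interval of a member reached 7.2% to either side of its FPKM at the median and 15.7% at most. These intervals do not cover variation between libraries, and they may hold more than counting error, so implied fragments are not exact counts. Mcm5 had 1416 implied fragments in each KO-NPC library and 1164 and 975 in E14-NPC, a smaller gap than in its FPKM. Dcaf7, the symbol under which the tables list Wdr68, averaged 8.68 ± 0.443 FPKM in KO-NPC and 28.4 ± 1.73 FPKM in E14-NPC, and 2.53 ± 0.383 FPKM in KO-ESC and 13.3 ± 1.27 FPKM in E14-ESC (SD, n = 2 each). Of 10 pluripotency markers, the summed level was 12.28 to 14.44 FPKM in KO-NPC and 37.59 to 45.35 FPKM in E14-NPC, and 3805 to 4358 FPKM over the 4 ESC libraries. Most of the gap between the NPC groups was Sox2, also a neural progenitor gene, at 1.15 and 2.47 FPKM in KO-NPC and 30.4 and 29.9 FPKM in E14-NPC. Of the 10 markers, 2 were called higher and 2 lower in KO-NPC than in E14-NPC, against 14.7% and 12.7% of all genes tested. Their median log2 change was -0.05. Esrrb, Tdgf1, Tfcp2l1, Utf1 and Zfp42 averaged under 1 FPKM in both NPC groups, so these counts and the median rest in part on values near the floor.

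Promoter sequences were read to show what the members share apart from their function. RefSeq promoter windows of 300 bases (GRCm38.p6, 250 bases before and 50 after a transcription start) were found for 27 of the 34 members, in 33 windows. No window was matched for Gins1, Gins2, Gins4, Mcm4, Pole, Prim2 and Rfc2. The E2F motif was searched as TTTCCCGC, TTTCGCGC, TTTGCCGC and TTTGGCGC on both strands. It occurred in 11 of 27 members (40.7%), against 2.6% of 27025 genes with a window. The 11 members are Mcm3, Mcm5, Mcm6, Mcm7, Cdc6, Cdt1, Gins3, Rfc3, Pola1, Pold1 and Lig1. The motif CCAAT, read on both strands, occurred in 18 of 27 members (66.7%) against 41.1% of genes. The motif TTTGAA, a cell cycle element of mitotic promoters and also read on both strands, occurred in 5 of 27 members (18.5%) against 20.2% of genes. The median GC content was 57.3% in the members' windows and 52.7% in all windows. A match describes the letters of the window and does not show that a factor binds there.

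The following stretches are those of the 4 members with the smallest p for KO-NPC against E14-NPC among those with an E2F motif, each read 5′ to 3′ on the strand of the gene, with the motif in capitals. The Mcm5 stretch lies at chr8:75109309-75109428, plus strand, 200 to 81 bases before the start. It holds a motif on each strand, and these overlap in the run in capitals.
Mcm5: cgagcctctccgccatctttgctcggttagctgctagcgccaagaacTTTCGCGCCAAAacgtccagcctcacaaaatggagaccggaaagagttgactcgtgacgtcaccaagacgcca
The Lig1 stretch (chr7:13278841-13278870, plus strand) lies 15 to 44 bases after the transcription start used for its window.
Lig1: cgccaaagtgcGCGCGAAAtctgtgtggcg
The Cdc6 stretch (chr11:98908002-98908031, plus strand) lies 149 to 120 bases before the transcription start used for its window. Another annotated start of Cdc6 lies further upstream.
Cdc6: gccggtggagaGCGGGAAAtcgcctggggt
The Mcm3 stretch (chr1:20820275-20820304, minus strand) lies just after its start.
Mcm3: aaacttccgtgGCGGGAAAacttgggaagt
In Lig1, Cdc6 and Mcm3 the capitals are a motif on the strand opposite to the gene.

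In KO-NPC, 27 of the 34 replication genes were higher than in E14-NPC and none was lower (limma on log2(FPKM + 1), Benjamini-Hochberg adjusted p under 0.05, two-sided). Over all genes tested, 14.7% were called higher and 12.7% lower. The median log2 change was 0.41 over the members and 0.05 over all genes tested, and the members' changes ran between 0.06 and 0.68. All 34 mean levels were higher in KO-NPC, and 30 members had an unadjusted p under 0.05, against 39.0% of all genes tested. In 33 members both KO-NPC libraries lay above both E14-NPC libraries, against 36.6% of all genes tested. The exception was Rrm1, whose groups overlapped. The summed level of the members was 1919 and 1917 FPKM in KO-NPC and 1487 and 1533 FPKM in E14-NPC, against 2534 and 2622 FPKM in KO-ESC and 2656 and 2692 FPKM in E14-ESC.

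Fold changes are given on the log2(FPKM + 1) scale throughout, which slightly understates the change of the lowest members. Of the 27 calls, 13 stood under every other setting tried and whichever library was left out: Mcm3, Mcm4, Mcm5, Mcm10, Cdc6, Cdt1, Orc6, Rfc5, Pole, Prim1, Lig1, Fen1 and Tyms. The other 14 were lost under at least 1 setting. Without KO-NPC replicate 1 the count of members called higher was 17, and without KO-NPC replicate 2 it was 16. It was 17 when the NPC libraries alone were fitted. The log2 change was above 0 for all 34 members under every setting.

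**Figure D1:**
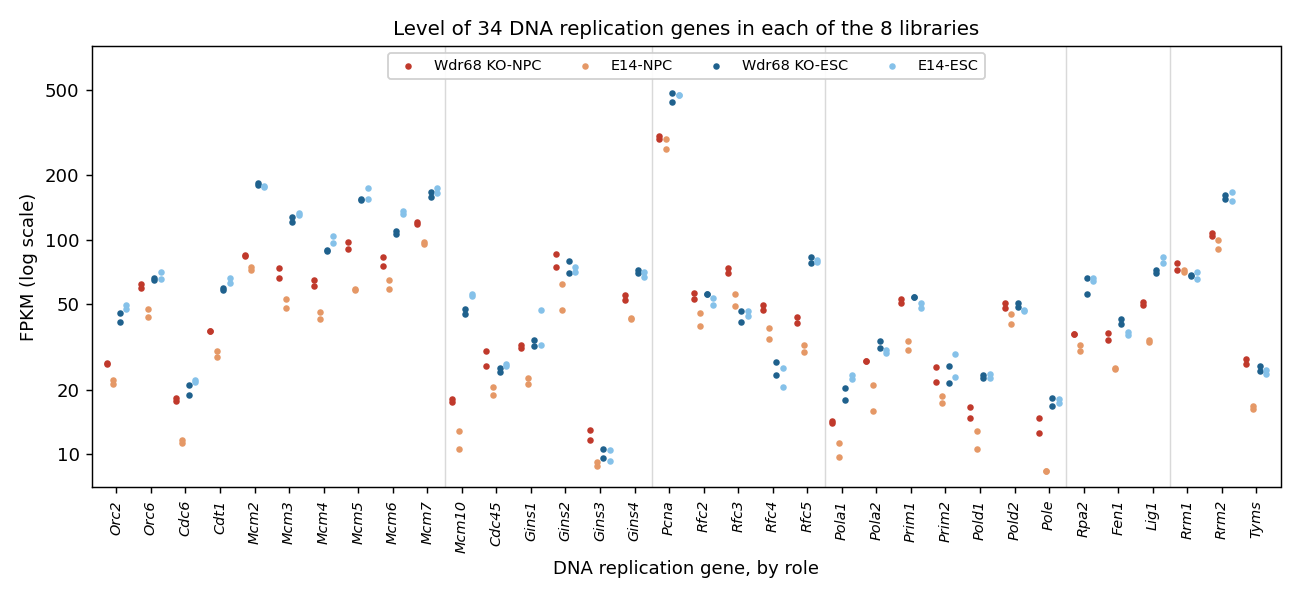
FPKM (log scale) of each of the 34 replication genes in the 8 libraries, 1 point per library, in order of role, with KO-NPC, E14-NPC, KO-ESC and E14-ESC side by side. The KO-NPC points lie above the E14-NPC points in 33 members, with Rrm1 as the exception, and the E14-NPC mean is the lowest of the 4 group means in 31.

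The cells of the NPC groups were not alike in their markers. Of 14 markers of postmitotic neurons, 13 were lower and 1, Isl1, was higher in KO-NPC than in E14-NPC, with a summed level of 32.84 to 39.42 FPKM in KO-NPC and 439.2 to 462.7 FPKM in E14-NPC. Of 12 markers of neural progenitors, 10 were lower and none higher, with sums of 331.0 to 345.8 FPKM in KO-NPC and 702.2 to 709.8 FPKM in E14-NPC. Nes and Sox9 were not called. All 9 tested of 11 markers of endothelium and blood were higher, with sums of 863.2 to 1060 FPKM in KO-NPC and 92.37 to 120.8 FPKM in E14-NPC, where Gata1 was listed at 0. Of 11 tested markers of mesoderm and heart, 9 were higher, with sums over the 12 listed of 199.6 to 240.6 FPKM in KO-NPC and 68.32 to 72.02 FPKM in E14-NPC, where Myl7 was listed at 0. Of 9 tested fibroblast markers, 6 were lower, with sums over the 10 listed of 70.3 to 83.06 FPKM in KO-NPC, where S100a4 was listed at 0, and 98.83 to 110.5 FPKM in E14-NPC. Some tested markers averaged at least 1 FPKM in 1 group alone and entered the test through that group. These were Dcn, Fap, Lum, Postn, Elavl3, Elavl4, Rbfox3, Syt1, Dll1 and Hes5 through E14-NPC, and Tal1 and Tnnt2 through KO-NPC. The filter set the direction of these markers, so their calls add no support. The part of these cell types in the members' difference was not tested. In bulk RNA, fewer cells of a type and less RNA per cell cannot be told apart.

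All 10 licensing members were called higher in KO-NPC: Orc2 and Orc6 of the origin recognition complex, Cdc6 and Cdt1, and the 6 subunits Mcm2 to Mcm7 of the helicase ring. Mcm5 (chr8:77633408-77652338 in the tables' mm9 coordinates, as for the loci that follow) had 97.1 and 90.8 FPKM in KO-NPC, against 58.8 and 57.9 FPKM in E14-NPC. The NPC groups were well apart, and both stood below the ESC libraries, which had 153.8 and 155.1 FPKM in KO-ESC and 154.8 and 174.3 FPKM in E14-ESC. The log2 change of Mcm5 in NPC was 0.68 (SE 0.07, adjusted p = 0.00073), a fold of 1.60.

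Cdc6 (chr11:98769203-98785256), which brings the Mcm ring to the origin, had 17.8 and 18.2 FPKM in KO-NPC and 11.2 and 11.6 FPKM in E14-NPC. In ESC it had 18.8 and 21.0 FPKM in KO-ESC and 21.7 and 22.2 FPKM in E14-ESC, and KO-NPC against KO-ESC did not pass the test, at -0.14 (log2, SE 0.08, adjusted p = 0.1607). The KO-NPC change of Cdc6 was 0.61 (log2, SE 0.08, adjusted p = 0.0018). Mcm4 had 64.8 and 60.9 FPKM in KO-NPC and 46.2 and 42.8 FPKM in E14-NPC, and its ESC values were 88.1 and 89.3 FPKM in KO-ESC and 103.9 and 96.3 FPKM in E14-ESC. Here KO-NPC stood between E14-NPC and both ESC groups, with a log2 change of 0.49 (SE 0.07, adjusted p = 0.0026).

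The ring subunits did not all move by the same amount. Their log2 changes in KO-NPC ran from 0.20 in Mcm2 (SE 0.05, adjusted p = 0.0331) to that of Mcm5, and the other licensing members lay within that range. Mcm2 had 84.6 and 84.2 FPKM in KO-NPC and 71.8 and 74.8 FPKM in E14-NPC, which did not overlap. Its call did not survive the omission of a single NPC library, of either E14-ESC library, or either scaling alternative. Orc2 lost its call with any NPC library omitted, Mcm6 without KO-NPC replicate 1 or E14-NPC replicate 1, and Mcm7 without KO-NPC replicate 2. Summed over the 6 ring subunits, the mean level per length was 509.9 FPKM in KO-NPC and 385.0 FPKM in E14-NPC, against 819.1 FPKM in KO-ESC and 877.4 FPKM in E14-ESC. Mcm4 was the lowest of the 6 in each group. The subunit levels stayed within 1.91-fold of each other in KO-NPC and 2.17-fold in E14-NPC.

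All 6 members of helicase activation were called higher in KO-NPC: Mcm10, which helps to activate the loaded helicase, Cdc45, and the 4 GINS subunits Gins1, Gins2, Gins3 and Gins4. Mcm10 had 17.4 and 18.1 FPKM in KO-NPC and 12.9 and 10.6 FPKM in E14-NPC, with a log2 change of 0.56 (SE 0.10, adjusted p = 0.005). Both NPC groups were far below the ESC groups, at 47.5 and 45.2 FPKM in KO-ESC and 54.7 and 55.9 FPKM in E14-ESC. Gins1 was the least certain call, with a log2 change of 0.52 (SE 0.16, adjusted p = 0.0492), and its libraries were far apart in E14-ESC, at 32.2 and 47.1 FPKM. The calls of Gins1, Gins2 and Gins3 were lost without KO-NPC replicate 1, and those of Gins1, Gins3 and Gins4 without KO-NPC replicate 2. That of Cdc45 was lost without E14-NPC replicate 1, as were those of Gins1, Gins2 and Gins3, and Gins1 and Gins3 also lost theirs without E14-NPC replicate 2, and Gins1 without either KO-ESC library. Gins2 had the highest and Gins3 the lowest mean level of the GINS subunits in all 4 groups, 6.53-fold apart in KO-NPC and 6.04-fold in E14-NPC. The locus of Gins2 shares 118 bases with that of Gse1, which had 21.2 and 22.5 FPKM in KO-NPC and 33.8 and 31.2 FPKM in E14-NPC. The loci of Mcm7, Pold1 and Pold2 also share bases with other listed genes. Whether the counting used strand is not given in the sources used here.

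Of the 5 members of the clamp and its loader, Rfc2, Rfc3 and Rfc5 were called higher in KO-NPC, while Pcna and Rfc4 did not pass the test. Pcna, the sliding clamp and the most abundant member per length, had 293.8 and 305.2 FPKM in KO-NPC and 265.9 and 293.2 FPKM in E14-NPC. These groups only just missed overlapping, and the log2 difference was 0.10 (SE 0.08, adjusted p = 0.3828). Rfc3 had 70.1 and 74.0 FPKM in KO-NPC and 55.5 and 49.1 FPKM in E14-NPC, a log2 change of 0.46 (SE 0.09, adjusted p = 0.0091). Rfc5 had 43.6 and 40.9 FPKM in KO-NPC and 32.4 and 30.0 FPKM in E14-NPC, a log2 change of 0.43 (SE 0.07, adjusted p = 0.0048). In both subunits the groups were apart by more than their own spread, but the call of Rfc3 was lost without KO-NPC replicate 2 or E14-NPC replicate 2. That of Rfc2 was lost without either KO-NPC library or E14-NPC replicate 2. Rfc4 had 49.5 and 46.7 FPKM in KO-NPC and 38.8 and 34.6 FPKM in E14-NPC, with a log2 difference of 0.38 (SE 0.12, adjusted p = 0.0534). Its groups did not overlap either, and it passed the threshold when either E14-ESC library was left out.

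Of the 7 members that are polymerase or primase subunits, Pola1, Pola2, Prim1, Pold1 and Pole were called higher in KO-NPC, and Pold2 and Prim2 did not pass the test. Prim1 (chr10:127452271-127467086), the catalytic subunit of primase, had 50.8 and 53.1 FPKM in KO-NPC and 33.5 and 30.4 FPKM in E14-NPC. With a log2 change of 0.68 (SE 0.07, adjusted p = 0.00064, 1.61-fold) it had the smallest p of the members. In ESC it had 54.2 and 53.7 FPKM in KO-ESC and 47.9 and 50.8 FPKM in E14-ESC, and KO-NPC against KO-ESC did not pass the test, at -0.06 (SE 0.07, adjusted p = 0.5114). Pole, the catalytic subunit of polymerase epsilon, had 12.6 and 14.7 FPKM in KO-NPC and 8.36 FPKM in both E14-NPC libraries, and 16.7 and 18.3 FPKM in KO-ESC and 17.3 and 18.1 FPKM in E14-ESC. The KO-NPC libraries of Pole were less alike than the E14-NPC libraries, and the log2 change was 0.64 (SE 0.10, adjusted p = 0.0033).

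Pola1, the catalytic subunit of polymerase alpha, had 13.9 and 14.3 FPKM in KO-NPC and 11.2 and 9.70 FPKM in E14-NPC, a log2 change of 0.40 (SE 0.10, adjusted p = 0.0236). Its call was lost without KO-NPC replicate 1, KO-NPC replicate 2 or E14-NPC replicate 2, that of Pola2 without either KO-NPC library, and that of Pold1 without any library other than E14-NPC replicate 2. Prim2, the partner of Prim1, differed by 0.37 on the log2 scale (SE 0.15, adjusted p = 0.1101), and Pold2, an accessory subunit of polymerase delta, by 0.21 (SE 0.07, adjusted p = 0.072). Both of these had groups that did not overlap in NPC.

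Among the genes of single-strand binding and strand maturation, Fen1 and Lig1 were called higher in KO-NPC, and Rpa2 was not. Lig1 (chr7:13862662-13896776), which seals the nicks of the lagging strand, had 51.0 and 49.4 FPKM in KO-NPC and 33.9 and 33.4 FPKM in E14-NPC. These pairs of libraries were close to each other within each group, and the log2 change was 0.56 (SE 0.06, adjusted p = 0.00077). The locus of Lig1 shares 1409 bases with that of 6330408A02Rik, which had 1.94 and 2.95 FPKM in KO-NPC and 2.79 and 2.82 FPKM in E14-NPC. In ESC that gene had 0.27 and 0.25 FPKM in KO-ESC and 0.68 and 0.64 FPKM in E14-ESC. Fen1, the flap endonuclease that trims the fragments, had 36.7 and 33.9 FPKM in KO-NPC and 25.2 and 25.1 FPKM in E14-NPC, a log2 change of 0.47 (SE 0.07, adjusted p = 0.0028). In ESC it had 40.4 and 42.6 FPKM in KO-ESC and 36.0 and 37.2 FPKM in E14-ESC, the highest values of the 4 groups in KO-ESC. Rpa2, a subunit of the protein that coats single strands, had 36.2 and 36.3 FPKM in KO-NPC and 32.3 and 30.2 FPKM in E14-NPC, with a log2 difference of 0.21 (SE 0.09, adjusted p = 0.1326).

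Among the 3 members of nucleotide supply, Tyms was called higher in KO-NPC and the subunits of ribonucleotide reductase were not. Tyms (chr5:30384740-30400165), which makes thymidylate, had 27.8 and 26.4 FPKM in KO-NPC and 16.3 and 16.8 FPKM in E14-NPC, a log2 change of 0.68 (SE 0.07, adjusted p = 0.00064). In ESC it had 24.3 and 25.8 FPKM in KO-ESC and 23.7 and 24.8 FPKM in E14-ESC, below both KO-NPC libraries, though KO-NPC against KO-ESC did not pass the test, at 0.11 (SE 0.07, adjusted p = 0.2029). The tables list a pseudogene, Tyms-ps, and reads of such a copy could have been split between the 2 entries. Rrm1 had 77.4 and 72.2 FPKM in KO-NPC and 72.3 and 70.9 FPKM in E14-NPC, and 68.4 and 67.9 FPKM in KO-ESC and 65.5 and 70.8 FPKM in E14-ESC. It was the flattest of the members, with a log2 difference of 0.06 in NPC (SE 0.07, adjusted p = 0.5489). Rrm2, the small subunit, differed by 0.15 (SE 0.08, adjusted p = 0.1904), with 104.1 and 107.3 FPKM in KO-NPC and 90.2 and 100.0 FPKM in E14-NPC.

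Members with and without an E2F motif had median changes of like size in KO-NPC. All 11 members with the motif were called higher in KO-NPC, as were 10 of the 16 others with a promoter window. Over all genes tested, 14.7% were called higher. The median log2 change was 0.41 with the motif and 0.40 without it, and the changes ran from 0.31 to 0.68 with it and from 0.06 to 0.68 without it. For E14-NPC against E14-ESC the medians were further apart, at -1.065 with the motif and -0.648 without it. The motif was not part of any test.

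In ESC, none of the 34 members was called in KO-ESC against E14-ESC by limma in either direction, where 0.128% of all genes were called higher and 0.12% lower. At an unadjusted p under 0.05 there were 6 members, against 12.7% of all genes tested. The median log2 difference was -0.04 over the members and -0.01 over all genes, and single members ran between -0.31 in Mcm6 and 0.17 in Fen1. Both KO-ESC libraries lay above both E14-ESC libraries in 6 members and below them in 10, and the groups overlapped in 18. Over all genes tested, 19.5% lay above and 24.7% below in this way.

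The 4 members with the smallest p in ESC were Mcm6, Lig1, Mcm10 and Pola1, and all 4 were lower in mean in KO-ESC. Mcm6 had 109.3 and 105.7 FPKM in KO-ESC and 131.1 and 136.5 FPKM in E14-ESC, a log2 difference of -0.31 (SE 0.07, adjusted p = 0.2015). In NPC the same gene had 82.6 and 75.3 FPKM in KO-NPC and 59.0 and 64.9 FPKM in E14-NPC, so its groups were apart in both cell states, in opposite directions. Lig1 had 71.8 and 69.8 FPKM in KO-ESC and 82.8 and 77.7 FPKM in E14-ESC, a log2 difference of -0.18 (SE 0.06, adjusted p = 0.3172). Mcm10, with the values given above, differed by -0.25 (SE 0.10, adjusted p = 0.3498). Pola1 had 20.2 and 17.9 FPKM in KO-ESC and 22.4 and 23.5 FPKM in E14-ESC, a difference of -0.26 (SE 0.10, adjusted p = 0.3552). None of these 4 differences passed the test, although the libraries of the 2 groups did not overlap.

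**Figure D2:**
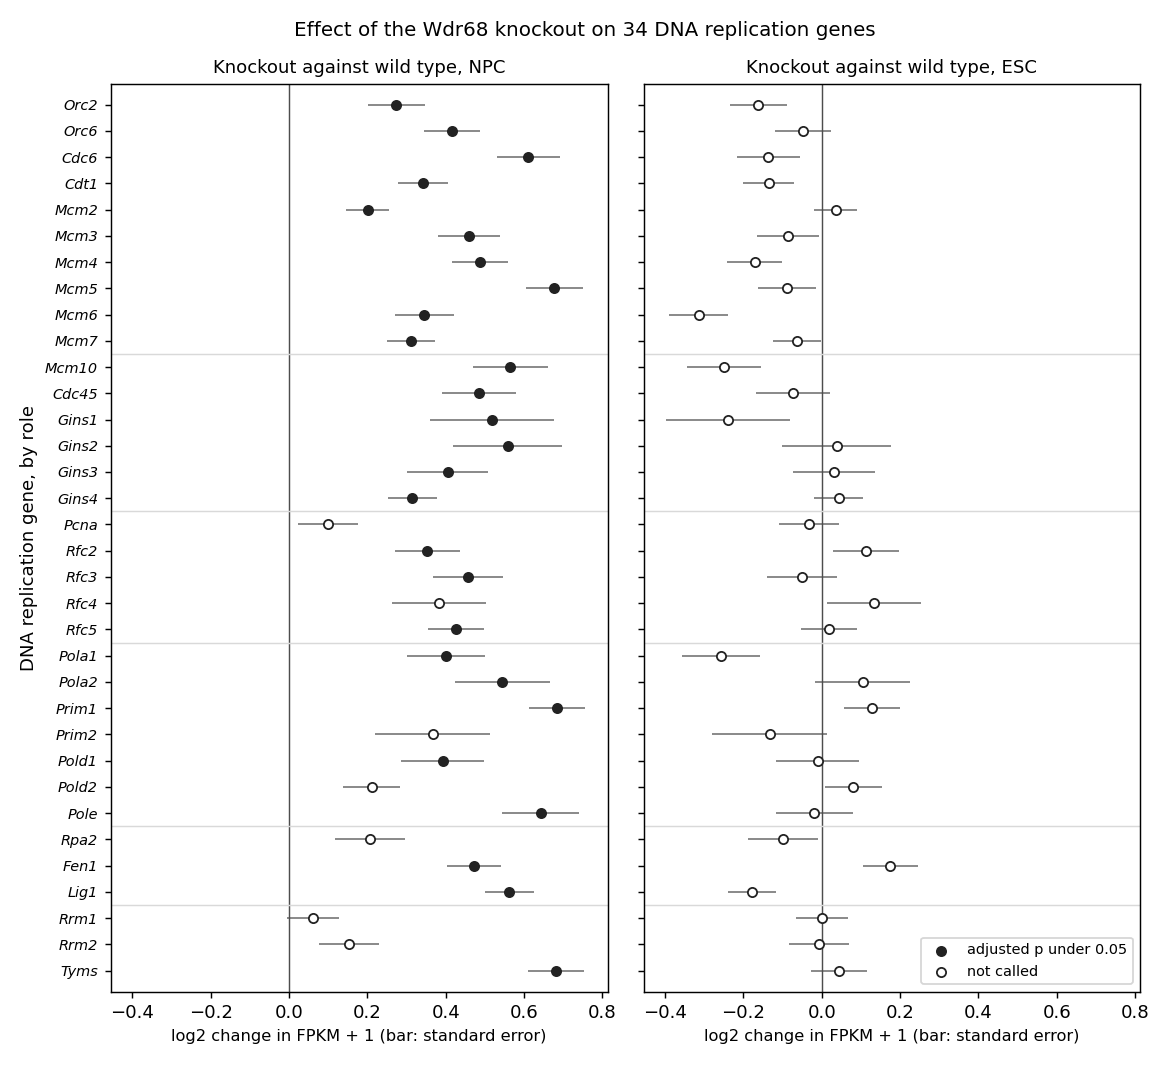
Log2 change of FPKM + 1 in the knockout against wild type for each of the 34 genes, in NPC (left panel) and in ESC (right panel), with bars for the standard error, and filled points for an adjusted p under 0.05. The left panel has 27 filled points, all above 0, and the right panel has none.

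The knockout effect in NPC minus that in ESC was itself tested in the same fit. It was above 0 in all 34 members by its sign, and 18 passed the test, all as higher, where 8.41% of all genes were called higher and 8.39% lower. No member was called lower, and 27 had an unadjusted p under 0.05, against 31.5% of all genes tested. The median difference was 0.47 over the members and 0.06 over all genes. The 6 with the smallest p were Lig1 at 0.74 (SE 0.09, adjusted p = 0.0022), Mcm5 at 0.77 (SE 0.10, adjusted p = 0.0038), Mcm4 at 0.66 (SE 0.10, adjusted p = 0.0059), Cdc6 at 0.75 (SE 0.11, adjusted p = 0.006), Tyms at 0.64 (SE 0.10, adjusted p = 0.0071) and Mcm6 at 0.66 (SE 0.11, adjusted p = 0.0074). These 6, with Mcm10 and Prim1, kept the call under every other setting and whichever library was left out, and the other 10 did not. The count of members called fell to 9 without KO-NPC replicate 2 or without E14-ESC replicate 2, and to 11 without KO-ESC replicate 1 or without E14-ESC replicate 1.

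From ESC to NPC in wild-type cells most replication genes fell. In E14-NPC, 29 members were lower and 1 was higher than in E14-ESC, where 31.1% of all genes were called lower and 41.6% higher. The median log2 change was -0.78 over the members and 0.15 over all genes. The 4 largest falls were in Mcm10, Mcm5, Mcm3 and Rfc5. Mcm10, with 12.9 and 10.6 FPKM in E14-NPC and 54.7 and 55.9 FPKM in E14-ESC, fell by 2.15 on the log2 scale (SE 0.10, adjusted p = 1.7e-06). Mcm5 fell by 1.48 (SE 0.07, adjusted p = 2.8e-06). Mcm3, another ring subunit, had 53.0 and 47.9 FPKM in E14-NPC and 133.0 and 130.6 FPKM in E14-ESC, and it fell by 1.37 (SE 0.08, adjusted p = 5.7e-06). In knockout cells it had 65.9 and 73.6 FPKM in KO-NPC and 127.1 and 121.0 FPKM in KO-ESC. Rfc5 had 32.4 and 30.0 FPKM in E14-NPC and 78.7 and 80.6 FPKM in E14-ESC, and it fell by 1.33 (SE 0.07, adjusted p = 4e-06). In all 4 genes the NPC libraries were far below the ESC libraries.

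Of the 5 members not called lower, Rfc4, Rfc3, Rrm1 and Gins3 were the 4 with the highest log2 change, and the fifth was Pold2, at -0.13 (SE 0.07, adjusted p = 0.1389). Rfc4 (chr16:23114021-23127803) was the member called higher, with 38.8 and 34.6 FPKM in E14-NPC and 25.3 and 20.6 FPKM in E14-ESC, a log2 change of 0.66 (SE 0.12, adjusted p = 0.0018), and this call stood under every setting. Rfc3 had 55.5 and 49.1 FPKM in E14-NPC and 44.0 and 46.5 FPKM in E14-ESC, a log2 difference of 0.20 (SE 0.09, adjusted p = 0.0748). It passed the threshold without E14-NPC replicate 2, which brought the members called higher to 2, and under quantile normalization. Rrm1 differed by 0.07 (SE 0.07, adjusted p = 0.3599) and was called higher under quantile normalization. Gins3, with 8.85 and 9.23 FPKM in E14-NPC and 10.5 and 9.24 FPKM in E14-ESC, differed by -0.11 (SE 0.10, adjusted p = 0.3594), and it had 12.9 and 11.7 FPKM in KO-NPC and 9.60 and 10.6 FPKM in KO-ESC. It was called lower under quantile normalization, and Pold2 was called lower under median-ratio scaling, so which members are exceptions rests in part on the scaling.

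In knockout cells 19 members were lower in KO-NPC than in KO-ESC and 2 were higher, Rfc3 and Rfc4, where 28.8% of all genes were called lower and 41.6% higher. The median log2 change was -0.37 over the members and 0.17 over all genes. Mcm10 fell by 1.34 (SE 0.10, adjusted p = 1.6e-05) and Rfc5 by 0.92 (SE 0.07, adjusted p = 2.5e-05), with 43.6 and 40.9 FPKM of Rfc5 in KO-NPC and 83.4 and 78.0 FPKM in KO-ESC. Rfc3 had 70.1 and 74.0 FPKM in KO-NPC and 41.2 and 46.3 FPKM in KO-ESC, a log2 change of 0.71 (SE 0.09, adjusted p = 0.00028). Rfc4 had 49.5 and 46.7 FPKM in KO-NPC and 23.4 and 26.9 FPKM in KO-ESC, a log2 change of 0.91 (SE 0.12, adjusted p = 0.00036). These KO-NPC values were the highest of the 4 groups for both genes. Median-ratio scaling moved the median change of all genes by more than 0.1 in both comparisons of NPC with ESC, to 0.03 in knockout and 0.05 in wild type. Relative to all genes, the members' median was -0.54 in knockout and -0.93 in wild type, against -0.58 and -0.94 under median-ratio scaling and -0.17 and -0.53 under quantile normalization.

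Set side by side, 19 members were called lower in NPC in both genotypes. Another 10 were called lower in wild type and not in knockout: Cdc6, Cdc45, Gins1, Gins2, Orc6, Rfc2, Pola2, Prim1, Prim2 and Tyms. This split depended on the scaling. Under median-ratio scaling 23 members were lower in both genotypes and 7 in wild type and not in knockout, with Cdc6, Orc6, Pola2 and Prim1 now lower in both, and under quantile normalization the counts were 15 and 13. Of the 10 named, the difference test above called Cdc6, Cdc45, Orc6, Prim1 and Tyms. In unscaled FPKM, the mean level in KO-NPC lay between those of E14-NPC and E14-ESC in 24 members. It lay above all other group means in 7 (Cdc45, Gins2, Gins3, Rfc3, Rfc4, Rrm1 and Tyms). Of these 7, Rfc3 and Rfc4 were called higher in KO-NPC than in KO-ESC without scaling, and the others were not. Median-ratio size factors were 1.086 and 1.078 in KO-NPC and 0.9439 to 0.967 in ESC. Scaling by them lowers KO-NPC against ESC, so placements near an ESC mean depend on the scaling. The share of all genes with each of these joint patterns was not counted, so whether the patterns are particular to the members was not tested. Not all of the calls behind these counts were firm. In wild type that of Gins2 was lost without E14-NPC replicate 1 or either E14-ESC library, that of Rfc2 without E14-NPC replicate 2 or E14-ESC replicate 1, and that of Prim2 without E14-NPC replicate 1 or E14-ESC replicate 2. In knockout Fen1 was no longer lower without KO-NPC replicate 2 or KO-ESC replicate 2, Pole without KO-NPC replicate 1 or KO-ESC replicate 2, and Pola1 without KO-ESC replicate 1. Cdc45 was called higher in KO-NPC without KO-NPC replicate 1, and Pola2 was called lower without either E14-NPC library. The 4 contrasts share libraries, so these counts are not independent of one another.

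**Figure D3:**
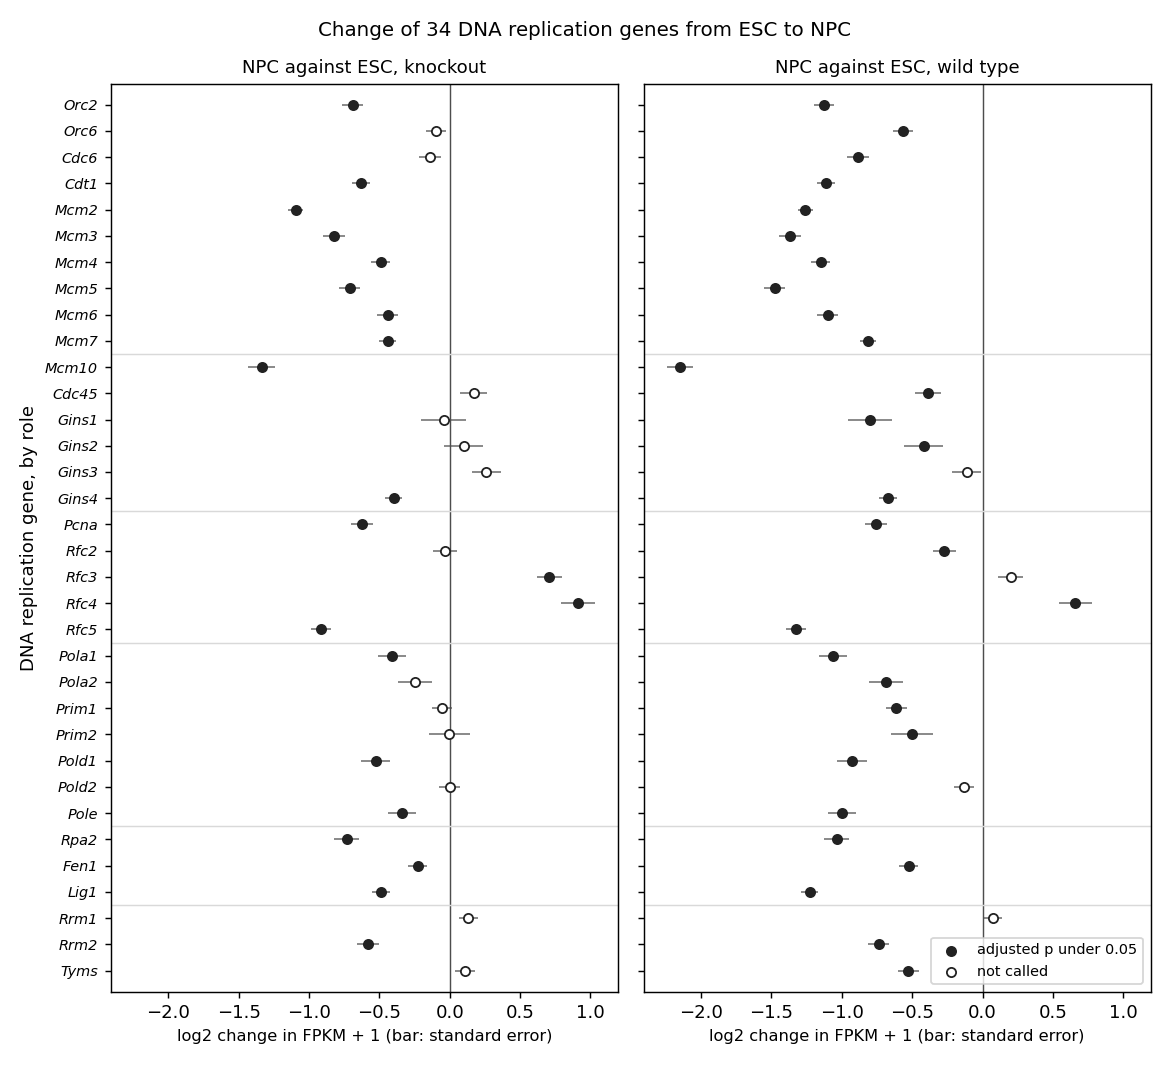
Log2 change of FPKM + 1 in NPC against ESC for each of the 34 genes, in knockout (left panel) and wild type (right panel), with bars for the standard error, and filled points for an adjusted p under 0.05. In wild type 29 filled points lie below 0 and that of Rfc4 lies above it, and in knockout 19 lie below 0 and those of Rfc3 and Rfc4 above it.

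The small subunits of the clamp loader changed their order between the cell states. On the per-length scale of FPKM, Rfc3 was the highest and Rfc5 the lowest of the 4 subunits in both NPC groups, with a spread of 1.71-fold in KO-NPC and 1.68-fold in E14-NPC. In both ESC groups Rfc5 was the highest and Rfc4 the lowest, with a spread of 3.20-fold in KO-ESC and 3.47-fold in E14-ESC. The ratio of Rfc5 to Rfc4 was 0.881 and 0.875 in KO-NPC and 0.834 and 0.867 in E14-NPC. In ESC it was 3.56 and 2.90 in KO-ESC and 3.11 and 3.92 in E14-ESC, so the 4 NPC libraries did not overlap with the 4 ESC libraries. A ratio within a library does not depend on a scaling by 1 factor per library, but quantile normalization can change it. The locus of Rfc4 shares 185 bases with that of Eif4a2, which had 98.3 and 94.1 FPKM in KO-NPC and 86.3 and 81.8 FPKM in E14-NPC, and 157.9 and 152.4 FPKM in KO-ESC and 158.0 and 158.2 FPKM in E14-ESC. All 4 NPC libraries of Eif4a2 lay below all 4 ESC libraries, the reverse of Rfc4. The part of reads from the shared bases in the Rfc4 values was not tested.

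**Figure D4:**
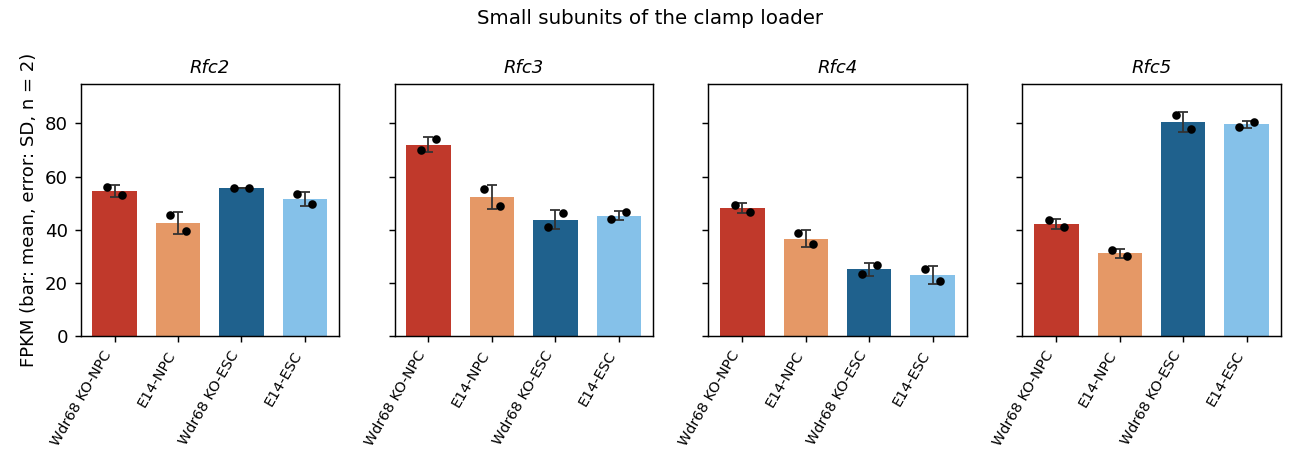
FPKM of the 4 small RFC subunits in KO-NPC, E14-NPC, KO-ESC and E14-ESC, with bars for the mean, error bars for the SD (n = 2) and a point for each library. Rfc4 and Rfc3 are highest in the NPC groups, Rfc5 is highest in the ESC groups, and Rfc2 is of like height in KO-NPC and both ESC groups.

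Ribonucleotide reductase showed a like contrast between its subunits. Rrm2 was lower in NPC than in ESC in both genotypes, with a log2 change of -0.58 in knockout (SE 0.08, adjusted p = 0.00038) and -0.74 in wild type (SE 0.08, adjusted p = 9.9e-05), and its call in knockout was lost under quantile normalization. The ratio of Rrm2 to Rrm1 was 1.35 and 1.49 in KO-NPC and 1.25 and 1.41 in E14-NPC, against 2.26 and 2.39 in KO-ESC and 2.55 and 2.15 in E14-ESC. All NPC ratios were below all ESC ratios.

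Other genes of the pathway, taken from lists that hold none of the 34 members, were read in the same fit, and their counts in KO-NPC stand beside the 14.7% of all genes called higher and 12.7% called lower. Of 35 other replication genes, 16 were higher and none lower in KO-NPC than in E14-NPC, with a median log2 change of 0.28, and 20 had an unadjusted p under 0.05. Among them was Dscc1, a subunit of an alternative clamp loader, with 17.1 and 17.6 FPKM in KO-NPC and 5.97 and 8.04 FPKM in E14-NPC, a log2 change of 1.21 (SE 0.15, adjusted p = 0.0015). This exceeded the change of any of the 34 members. Timeless, which protects moving forks, had 22.4 and 21.6 FPKM in KO-NPC and 11.8 and 13.4 FPKM in E14-NPC, a log2 change of 0.76 (SE 0.10, adjusted p = 0.0015). Chtf18, the large subunit of the same alternative loader as Dscc1, rose by 0.75 (SE 0.13, adjusted p = 0.0051), and its call was lost when the NPC libraries alone were fitted.

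Of 12 other genes of nucleotide supply, 4 were higher and 1 lower in KO-NPC, with a median log2 change of 0.07. Higher and lower were 4 and 2 under median-ratio scaling and 5 and 3 under quantile normalization. Shmt1, which feeds the folate cycle, rose by 0.55 (SE 0.06, adjusted p = 0.00073). Dut, which removes dUTP, rose by 0.54 (SE 0.09, adjusted p = 0.004). Tk1, the thymidine salvage kinase, rose by 0.56 (SE 0.12, adjusted p = 0.0129), and its call was lost without KO-NPC replicate 1 and without either E14-NPC library. Samhd1, which degrades deoxynucleotides, was the gene called lower without scaling, at -0.42 (SE 0.09, adjusted p = 0.0146). The Samhd1 call was lost without KO-NPC replicate 1, KO-NPC replicate 2 or E14-NPC replicate 2, and when the NPC libraries alone were fitted. Of 10 genes of chromatin assembly, 5 were called higher and none lower, with 7 at an unadjusted p under 0.05. That count was 1 under median-ratio scaling and 2 under quantile normalization. Chaf1a and Chaf1b, subunits of the chaperone that places histones behind the fork, rose by 0.41 (SE 0.08, adjusted p = 0.01) and 0.33 (SE 0.09, adjusted p = 0.0319), and Nasp, a histone chaperone, by 0.28 (SE 0.07, adjusted p = 0.0183). All 3 lost the call with at least 2 of the NPC libraries omitted in turn.

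Among 19 E2F and RB regulators, 5 were higher and 1 lower in KO-NPC than in E14-NPC, with a median log2 change of 0.18. Higher and lower were 4 and 2 under median-ratio scaling and 4 and 3 under quantile normalization. Without scaling the gene called lower was Rb1, with 7.08 and 6.50 FPKM in KO-NPC and 12.4 and 14.7 FPKM in E14-NPC. Its log2 change was -0.90 (SE 0.15, adjusted p = 0.0049). Its level was higher in both NPC groups than in ESC, where it was 1.07 and 0.85 FPKM in KO-ESC and 1.74 and 1.23 FPKM in E14-ESC. Cdk2, the kinase of S phase entry, rose by 0.56 (SE 0.08, adjusted p = 0.0025). Lin54 and Lin9, subunits of the MuvB complex of cell cycle promoters, rose by 0.52 (SE 0.11, adjusted p = 0.0149) and 0.49 (SE 0.10, adjusted p = 0.0121), and both calls were lost without KO-NPC replicate 1, KO-NPC replicate 2 or E14-NPC replicate 2. E2f1, an activating E2F, was not called, at -0.27 (SE 0.11, adjusted p = 0.1126).

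Of 20 genes of mitosis, 16 were higher and none lower in KO-NPC, with a median log2 change of 0.36 and 18 at an unadjusted p under 0.05. The count was 12 under median-ratio scaling and 13 under quantile normalization. Birc5, a subunit of the chromosomal passenger complex, had 154.2 and 146.8 FPKM in KO-NPC and 80.1 and 73.6 FPKM in E14-NPC, a log2 change of 0.96 (SE 0.08, adjusted p = 0.00028). Cdk1, the mitotic kinase, and Ttk, a spindle checkpoint kinase, were higher by 0.62 (SE 0.07, adjusted p = 0.0012) and 0.55 (SE 0.11, adjusted p = 0.009), and the call of Ttk was lost without KO-NPC replicate 1. Beside these 16 of 20 mitosis genes and their median stand the 27 of 34 replication genes and their median of 0.41. None of the genes of these 5 lists was called in KO-ESC against E14-ESC by limma. At an unadjusted p under 0.05 there were 3 other replication genes, 3 of nucleotide supply, 4 of chromatin assembly, 2 E2F and RB regulators and 3 of mitosis.

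From ESC to NPC in wild type, 20 of 35 other replication genes were lower and 3 higher, 8 and 2 of 12 of nucleotide supply, 9 and 1 of 10 of chromatin assembly, 6 and 8 of 19 regulators, and 16 and 1 of 20 of mitosis. Over all genes tested, 31.1% were lower and 41.6% higher. The list counts depended on the scaling. In the same order, lower and higher were 20 and 2, 9 and 2, 9 and 0, 6 and 8, and 16 and 1 under median-ratio scaling. Under quantile normalization they were 23 and 5, 7 and 3, 5 and 1, 6 and 5, and 12 and 2. Orc1, the large subunit of the origin recognition complex, changed by -2.58 (SE 0.12) and Ticrr, an initiation factor, by -1.71 (SE 0.14), while Pold4 and Top1 rose by 0.96 (SE 0.17) and 0.70 (SE 0.11). Shmt1 changed by -1.96 (SE 0.06) and Dtymk, the thymidylate kinase, by -1.09 (SE 0.10), while Rrm2b, an alternative small subunit of ribonucleotide reductase, rose by 0.75 (SE 0.15) and Dck, a salvage kinase, by 0.57 (SE 0.08). Uhrf1, a reader of newly copied methylated DNA, changed by -1.76 (SE 0.07) and Nasp by -0.89 (SE 0.07), and the histone chaperone Asf1a rose by 0.22 (SE 0.08), a call lost under median-ratio scaling, with the replicate number as a block, in the fit of the compared groups alone, and with any 1 library omitted other than E14-ESC replicate 2. Among the regulators Rb1 rose by 2.55 (SE 0.15) and E2f6 by 1.04 (SE 0.12), while Ccne1, the cyclin of S phase entry, changed by -2.06 (SE 0.11) and Cdk2 by -0.76 (SE 0.08). In mitosis Mki67 rose by 0.63 (SE 0.11), against -1.25 (SE 0.09) in Cdc20 and -1.11 (SE 0.07) in Kif20a. All of these passed the limma test at an adjusted p of at most 0.0417, and that of Rrm2b was lost under quantile normalization.

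In knockout cells, 15 other replication genes were lower in KO-NPC than in KO-ESC and 11 were higher, where 28.8% of all genes were lower and 41.6% higher. Orc1 changed by -1.95 (SE 0.12) and Pole4, a subunit of polymerase epsilon, by -1.24 (SE 0.10), whereas Dscc1 rose by 1.32 (SE 0.15) and Cdc7, the kinase that fires origins, by 0.81 (SE 0.10). Of nucleotide supply, 8 were lower and 2 higher, with Shmt1 at -1.52 (SE 0.06), Dctpp1, a pyrophosphatase, at -1.20 (SE 0.12), Rrm2b at 0.58 (SE 0.15) and Dck at 0.43 (SE 0.08). Of chromatin assembly, 4 were lower and 1 higher, with Uhrf1 at -1.33 (SE 0.07), Supt16, a subunit of the FACT chaperone, at -0.69 (SE 0.08) and Asf1a at 0.43 (SE 0.08). Of the regulators, 4 were lower and 9 higher, with Ccne1 at -1.75 (SE 0.11), E2f4 at -0.69 (SE 0.07), Rb1 at 1.99 (SE 0.15) and E2f6 at 1.51 (SE 0.12). Of mitosis, 10 were lower and 4 higher, with Cdc20 at -0.95 (SE 0.09), Aurka at -0.78 (SE 0.08), Mki67 at 1.10 (SE 0.11) and Aurkb at 0.68 (SE 0.09). The named genes passed at an adjusted p of at most 0.0101, and Rrm2b lost its call under quantile normalization. The list counts in knockout depended on the scaling. In the order above, lower and higher were 18 and 6, 9 and 2, 7 and 1, 5 and 8, and 16 and 3 under median-ratio scaling. Under quantile normalization they were 14 and 8, 7 and 1, 3 and 2, 2 and 7, and 6 and 4.

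The knockout effect in NPC minus that in ESC was called higher in 14 other replication genes, 1 of nucleotide supply, 3 of chromatin assembly, 3 regulators and 6 of mitosis, where 8.41% of all genes were called higher. No gene of these 5 lists was called lower by limma, and 20, 4, 6, 7 and 14 genes of the lists, in that order, had an unadjusted p under 0.05. The difference was 1.54 (SE 0.22, adjusted p = 0.0044) in Dscc1, 0.87 (SE 0.14, adjusted p = 0.0069) in Timeless, 0.55 (SE 0.09, adjusted p = 0.0089) in Nasp, 0.85 (SE 0.15, adjusted p = 0.0093) in Lin9 and 0.69 (SE 0.12, adjusted p = 0.0103) in Birc5. It was 0.44 in Shmt1 (SE 0.08, adjusted p = 0.0144), 0.44 in Uhrf1 (SE 0.10, adjusted p = 0.0252), 0.50 in Cdk2 (SE 0.11, adjusted p = 0.0254) and 0.69 in Cenpe, a mitotic motor (SE 0.17, adjusted p = 0.0337). These last 4 were lost without KO-NPC replicate 1, as without at least 2 other libraries. That of Cenpe was also lost with the replicate number as a block and with no filter on low values.

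Across the 34 members, the log2 change in KO-NPC and the log2 level in E14-NPC had a Pearson correlation of -0.53, as a description. Both terms hold the E14-NPC values, and genes are not independent replicates.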

How the data were processed

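Poly(A) RNA was sequenced from directional libraries, per the labels' protocols. The submitters' processing notes name mm9, TopHat2 2.1.1 and Cufflinks 2.2.1. The authors deposited FPKM for each gene, with the bounds of a 95% confidence interval, and read counts were not used here. From a table's upper bound, implied fragments were derived, and for genes with 1 start site and under 5 fragments 62.2% to 66.4% were within 0.05 of a whole number, against 10% by chance. Entries that share a symbol were summed (285 symbols), and 12 symbols with a failed estimate were left out.

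Genes that reached 1 FPKM in 2 or more libraries entered limma 3.58.1 (R 4.3.3) as log2(FPKM + 1) values (variance trend, 4 group means, 4 residual degrees of freedom), with p-values adjusted by Benjamini-Hochberg over all 13318 genes per contrast. The script was tested on simulated data. Across all genes, 3648 were called for knockout in NPC, 33 for knockout in ESC, 9366 and 9675 for NPC against ESC in knockout and wild type, and 2237 for the difference of the knockout effects. Replicates of a group correlated at 0.950 to 0.962 across genes. Alternatives were another pseudocount, other filters, 2 scalings, the highest entry per symbol, fewer groups, a replicate block and each library left out.

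The members and lists were chosen with earlier results of these data known. All 34 members are named. Values in every library are given for the 8 members with the smallest p for knockout in NPC and the 4 with the smallest p in ESC. They are also given for the 4 highest and the 4 lowest log2 changes from ESC to NPC in wild type, and the 6 smallest p for the difference. From the other lists, up to 3 called genes per direction for knockout in NPC, and up to 2 for other contrasts, were named by size of change. E2f1, and the library values of genes outside the rule, were added after the values were seen.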

Additional observations from a re-analysis of the deposited data

Results flagged for a closer look

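The effect of the knockout differed between NPC and ESC, by the test of the difference itself, in 18 members. The value for each is the log2 change of KO-NPC against E14-NPC minus that of KO-ESC against E14-ESC. In the helicase ring it was 0.55 for Mcm3, 0.66 for Mcm4, 0.77 for Mcm5, 0.66 for Mcm6 and 0.37 for Mcm7. Among the other licensing genes it was 0.75 for Cdc6, 0.48 for Cdt1, 0.44 for Orc2 and 0.47 for Orc6. In helicase activation it was 0.81 for Mcm10, the largest of the 18, and 0.56 for Cdc45. In the clamp loader it was 0.51 for Rfc3 and 0.41 for Rfc5. Among the polymerases and primase it was 0.66 for Pola1, 0.66 for Pole and 0.56 for Prim1. Lig1 stood at 0.74 and Tyms at 0.64. All 18 were above 0, and 8 of them kept the call under every setting and whichever library was left out: Cdc6, Lig1, Mcm4, Mcm5, Mcm6, Mcm10, Prim1 and Tyms.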

How the results depend on the processing

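No member's called change reversed under any alternative. For knockout in NPC, the members' median was 0.357 under median-ratio scaling, and 17 members were called when the groups compared were fitted alone. For knockout in ESC, 3 genes of the whole table were called in that smaller fit and 15 with the replicate block, against 33. For NPC against ESC in knockout the median was -0.382 with a pseudocount of 0.1, -0.543 under median-ratio scaling and -0.167 under quantile normalization, which called 4 members higher. In wild type it was -0.899 under median-ratio and -0.545 under quantile normalization, which called 3 higher. The median difference of the knockout effects was 0.414 under median-ratio scaling. The causes were not tested.

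With 1 library left out, in which case the lone sample is assumed to vary like the other groups, the count of members called higher ranged from 16 to 26 for knockout in NPC, from 2 to 3 and from 1 to 2 for NPC against ESC in knockout and wild type, and from 9 to 13 for the difference. Members called lower ranged from 17 to 20 and from 27 to 29 for NPC against ESC in knockout and wild type. Medians ranged from 0.401 to 0.418 for knockout in NPC, -0.074 to 0.004 in ESC, -0.401 to -0.323 and -0.836 to -0.722 for NPC against ESC in knockout and wild type, and 0.427 to 0.506 for the difference. Genes called ranged from 2281 to 3340, 10 to 18, 8317 to 9323, 8727 to 9581 and 1283 to 1822 in the same order.

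The deviations of same-numbered libraries correlated at -0.054 to 0.179 over all genes and at -0.116 to 0.298 over the 34 members, not above 0.1 in every pair of groups on either count, and the labels give no shared source, so the samples were not treated as paired. With the replicate block 27 members were higher for knockout in NPC (Gins1 lost, Prim2 gained) and 18 for the difference (Rfc3 lost, Prim2 gained). With the 250 bases before the start alone, the E2F motif occurred in 7 of 27 members (25.9%) against 2.16% of genes. Depth is implied from intervals, 2 libraries a group limit the precision, and the marker levels of the NPC groups differ.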
